A study of Homo sapiens with 4 samples.

Results

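The desmosome genes examined here are 9 in number, DSP, DSC2, DSC3, DSG2, PKP2, PKP4, JUP, PPL and EVPL, and they were taken by symbol from the 25559 genes of each deposited count table. The tables come from HGC-27, a human cell line from a lymph node metastasis of a poorly differentiated gastric carcinoma, with 2 libraries of wildtype cells and 2 of RUNX3 KO cells. RUNX3 KO cells had been made with a lentiviral vector that carries Cas9 and a guide to RUNX3, followed by puromycin selection and single-cell cloning, so their differences from wildtype cells include those of any clone that was picked. The number of clones and whether replicates were separate cultures are not given in the sources used here, and p-values then measure only the spread between these libraries, which may be technical. No treatment or time point separates the libraries, and whether the wildtype cells carried a control vector is not given in the sources used here.

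Desmosomes are junctions that hold neighbouring cells together and anchor their intermediate filaments. Desmogleins (DSG) and desmocollins (DSC) are the cadherins that span the membrane, plakoglobin (JUP) and the plakophilins (PKP) are armadillo proteins that bind the cadherin tails on the inside, and desmoplakin (DSP) is the plakin that links this plaque to keratins. Periplakin (PPL) and envoplakin (EVPL) are further plakins, best known from the cornified envelope of stratified epithelia. Simple epithelia rely on DSG2, DSC2 and PKP2, whereas most of the other desmogleins and desmocollins belong to stratified epithelia.

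Of the 9 genes, 6 had enough counts to be tested, and JUP was among them only through its counts in RUNX3 KO libraries. DSP, JUP, PKP2 and PKP4 were higher and DSC2 and DSG2 were lower in RUNX3 KO cells at an adjusted p under 0.05 (quasi-likelihood test of edgeR, Benjamini-Hochberg adjusted for the 12967 genes tested). At that threshold 24.5% of all tested genes were higher and 24.4% were lower (48.9% either), so a call by itself is common in these libraries. Without RUNX3 KO replicate 2, the calls for PKP2 and JUP were lost and 2 members were higher, while calls over all genes fell as well, to 1285 higher of 13244 tested. The study set its own criteria at a 2-fold change or more with p no greater than 0.05. Under these DSP and JUP were higher and DSC2 was lower, and of all tested genes 2.11% were higher, 4.01% lower and 6.12% either. DSC3, PPL and EVPL had too few counts for a test.

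The 4 libraries held between 11731401 and 12110876 reads on genes, and the rows for reads without a gene held 25.9% to 28.1% of each table. Replicates lay close to the noise of counting, since the chi-square per degree of freedom was 1.22 for the wildtype pair and 1.18 for the RUNX3 KO pair. RUNX3 itself had 351 and 308 counts in wildtype libraries and 225 and 185 in RUNX3 KO libraries (log2 fold change -0.70, SE 0.0961, adjusted p = 1.43e-09), so its transcript was lower but still counted in each KO library. The paper reports by immunoblot that RUNX3 protein was absent from its KO cells. The labels call the line gastric cancer, yet the markers of gastric epithelium listed here (MUC5AC, MUC6, TFF1, TFF2, GKN1 and CLDN18) had at most 1 count in any library. Of 7 epithelial markers, KRT19 had 0 counts throughout, EPCAM at most 1, and the summed level of the list ranged from 4.32 to 4.74 CPM (counts per 1000000 reads of the TMM-scaled library size) in wildtype and from 12.2 to 12.6 CPM in RUNX3 KO libraries. KRT8, whose counts are uncertain because of near-identical pseudogenes, made up 1.27 ± 0.479 CPM of that sum in wildtype and 6.42 ± 0.451 CPM in RUNX3 KO cells (SD, n = 2 libraries each). The 3 tested genes of the list rose (24.5% of all tested genes were higher). CDH1 (E-cadherin) rose by 0.77 (adjusted p = 0.0238), CLDN7 (a claudin) by 0.75 (adjusted p = 0.0406) and KRT8 by 2.33 on the log2 scale (adjusted p = 1.90e-13). Their part in the desmosome changes was not tested. Leukocyte markers (PTPRC, CD3E, CD68) had at most 10 counts, endothelial markers (PECAM1, VWF, CDH5) at most 4, and the keratinocyte keratins KRT5, KRT14 and KRT1 at most 1 in any library. TP63, also listed as a keratinocyte marker, had 16 and 14 counts in wildtype libraries and 3 and 4 in RUNX3 KO libraries. In bulk RNA, fewer cells that express a gene and less RNA per cell cannot be told apart.

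**Figure D1:**
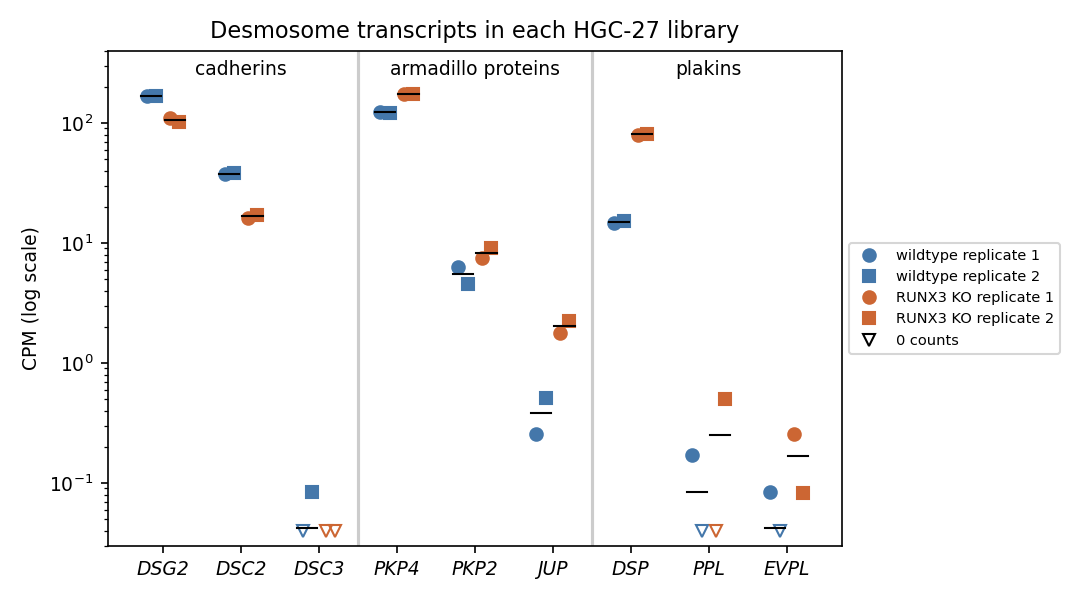
Level of each of the 9 desmosome genes in CPM on a log axis, with 1 symbol per library (blue, wildtype; orange, RUNX3 KO), black bars at the mean of 2 libraries, and open triangles for libraries with 0 counts. The RUNX3 KO symbols lie above those of wildtype for PKP4, PKP2, JUP and DSP and below them for DSG2 and DSC2, while DSC3, PPL and EVPL stay under 1 CPM in every library.

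RUNX3 binds DNA at motifs such as TGTGGT, and the repressors of the SNAI and ZEB families bind the E-box CAGGTG. The sequence upstream of the starts was therefore searched for TGTGGT and CAGGTG. RefSeq promoters (GRCh38.p14) were at hand for 6 of the 9 genes, DSP, DSC2, DSC3, DSG2, PKP4 and JUP, with 9 start sites in all, and the 250 bases before each start were read on both strands. The end of CAGGTG and the start of TGTGGT share the letters TG, so the motifs can overlap. The promoters of DSP, which rose in every alternative run, and of the lowered cadherins DSG2 and DSC2 follow from 5′ to 3′ along the gene, with every E-box, CAGGTG or its reverse CACCTG, in capitals. The DSP window lies at chr6:7541421-7541670 on the plus strand, the DSG2 window at chr18:31497927-31498176 on the plus strand and the DSC2 window, before the outer of its 2 starts, at chr18:31102422-31102671 on the minus strand.
DSP: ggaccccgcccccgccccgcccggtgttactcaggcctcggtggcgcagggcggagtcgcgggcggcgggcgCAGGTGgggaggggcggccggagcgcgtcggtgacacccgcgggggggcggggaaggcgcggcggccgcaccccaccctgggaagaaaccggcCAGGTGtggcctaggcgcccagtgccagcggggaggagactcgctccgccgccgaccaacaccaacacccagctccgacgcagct
DSG2: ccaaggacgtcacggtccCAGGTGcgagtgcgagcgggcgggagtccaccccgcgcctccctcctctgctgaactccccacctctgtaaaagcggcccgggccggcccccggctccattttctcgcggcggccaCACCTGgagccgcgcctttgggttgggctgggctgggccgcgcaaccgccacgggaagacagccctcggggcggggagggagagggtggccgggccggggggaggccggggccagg
DSC2: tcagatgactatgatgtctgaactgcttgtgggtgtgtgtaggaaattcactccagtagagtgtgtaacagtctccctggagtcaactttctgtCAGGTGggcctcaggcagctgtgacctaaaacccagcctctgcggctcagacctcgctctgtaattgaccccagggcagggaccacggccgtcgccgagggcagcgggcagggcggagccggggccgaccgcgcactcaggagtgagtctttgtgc
No window of the 9 held TGTGGT or its reverse ACCACA. They occur in 11.0% of all RefSeq windows of this length and in 8.16% of those of tested genes. This says only that these letters are not in the windows. Other forms of the RUNX motif were not searched, and the paper placed most of its RUNX3 binding sites away from starts. E-boxes were found in 4 of the 9 windows, against 17.5% of all windows and 15.1% of those of tested genes. DSP held E-boxes that begin 178 and 85 bases before its start, DSG2 held them at 232 and 116 bases and DSC2 at 156 bases, and the inner start of JUP had them at 54 and 43 bases. The motif was thus found for DSP and JUP, which rose, and for DSG2 and DSC2, which fell, and in neither window of PKP4, which rose. The inner start of DSC2 and the outer start of JUP had none, and which starts these cells use was not tested. G and C made up 59.6% to 78.0% of the bases over the 9 windows, with the lowest share in the DSC2 window shown and the highest in that of DSP.

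DSG2 encodes desmoglein 2, the desmoglein of simple epithelia, and was the most abundant member per length in wildtype cells. It lies on chromosome 18 from 29078140 to 29128971 (hg19, plus strand), and had 1987 and 1962 counts in wildtype and 1297 and 1226 in RUNX3 KO libraries. The groups did not overlap, as was the case for 72.7% of all tested genes. Its level fell from 167 ± 1.45 to 106 ± 5.59 CPM (SD, n = 2 libraries each). Its log2 fold change was -0.66 with an SE of 0.0408 (adjusted p = 4.43e-26), or 1.58-fold lower. The antisense gene DSG2-AS1 overlaps DSG2 and was not analysed here. Whether reads were counted by strand is not given in the sources used here, so reads from the pair cannot be told apart.

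DSC2 encodes desmocollin 2, the partner of desmoglein 2, and lies on chromosome 18 from 28638806 to 28682485 (minus strand). It had 445 and 448 counts in wildtype libraries and 190 and 206 in RUNX3 KO libraries. Both KO libraries lay far under either wildtype library. The level fell from 37.8 ± 0.191 to 16.6 ± 0.733 CPM (SD, n = 2 libraries each). Its log2 fold change was -1.19 with an SE of 0.0869 (adjusted p = 9.78e-22), or 2.28-fold lower. Within each library, the counts of DSC2 per count of DSG2 were 0.224 and 0.228 in wildtype and 0.146 and 0.168 in RUNX3 KO cells. The ratio was lower in both KO libraries than in either wildtype library. It was chosen after the values were seen and is a description that does not depend on the scaling of libraries.

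DSC3, a desmocollin of stratified epithelia, had 0 and 1 counts in wildtype libraries and 0 in both RUNX3 KO libraries. A count of 0 allows up to 3 counts, or no more than 0.254 CPM, so DSC3 was not detectable at this depth in RUNX3 KO cells.

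PKP4 encodes plakophilin 4, an armadillo protein found at both desmosomes and adherens junctions. It lies on chromosome 2 from 159313464 to 159539391 (plus strand), and had 1471 and 1420 counts in wildtype libraries and 2077 and 2078 in RUNX3 KO libraries. The KO counts were nearly the same and lay above both wildtype counts. PKP4 rose from 122 ± 3.02 to 174 ± 2.21 CPM (SD, n = 2 libraries each). Its log2 fold change was 0.51 with an SE of 0.0389 (adjusted p = 9.03e-21), or 1.42-fold higher. The rise was small in size but far above the spread of the replicates. PKP4-AS1 overlaps the gene on the other strand, with the same limit as for DSG2.

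PKP2, the main plakophilin of simple epithelia and heart muscle, lies on chromosome 12 from 32943679 to 33049732 (minus strand). It had 75 and 54 counts in wildtype libraries and 89 and 109 in RUNX3 KO libraries. The groups did not overlap, but the libraries of each group were far apart. Its level went from 5.46 ± 1.26 to 8.30 ± 1.08 CPM (SD, n = 2 libraries each). Its log2 fold change was 0.60 with an SE of 0.168 (adjusted p = 0.00169). Of the summed counts, the RUNX3 KO to wildtype ratio was 1.52 with a 95% exact interval from 1.21 to 1.91, which covers counting error only. The call depended on single libraries. The log2 fold change was 0.38 (adjusted p = 0.104) without wildtype replicate 2, 0.73 (adjusted p = 0.103) without RUNX3 KO replicate 1 and 0.46 (adjusted p = 0.257) without RUNX3 KO replicate 2, and the call was also lost with DESeq2 (adjusted p = 0.0998) and without a filter on low counts (adjusted p = 0.0698). PKP4 counts per PKP2 count were 19.6 and 26.3 in wildtype and 23.3 and 19.1 in RUNX3 KO libraries, and these groups overlapped (exact two-sided permutation p = 0.667). The pseudogene RPL35AP27 overlaps PKP2 over 316 bases on the other strand, with the same limit as for DSG2.

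JUP encodes plakoglobin, the armadillo protein that links the cadherin tails to desmoplakin, and lies on chromosome 17 from 39910856 to 39943183 (minus strand). It had few counts, 3 and 6 in wildtype libraries and 21 and 27 in RUNX3 KO libraries. It passed the filter on low counts through its RUNX3 KO libraries alone, so a difference was needed for it to be tested. JUP rose from 0.381 ± 0.180 to 2.01 ± 0.330 CPM (SD, n = 2 libraries each). Its log2 fold change was 2.37 with an SE of 0.433 (adjusted p = 2.32e-06). From the summed counts of 9 and 48, the ratio of RUNX3 KO to wildtype was 5.28, with a 95% exact interval from 2.56 to 12.3 for counting error. Without RUNX3 KO replicate 2, JUP had a log2 fold change of 2.19 and an adjusted p of 0.0546. Beta-catenin (CTNNB1), the close relative of plakoglobin at adherens junctions, had 2280 and 2208 counts in wildtype libraries and 2270 and 2282 in RUNX3 KO libraries.

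DSP encodes desmoplakin, and its log2 fold change was close to that of JUP but had a much smaller SE. The gene lies on chromosome 6 from 7541571 to 7586947 (plus strand), and had 173 and 179 counts in wildtype libraries and 943 and 974 in RUNX3 KO libraries. The KO counts were close to each other and lay far above both wildtype counts. DSP rose from 14.9 ± 0.364 to 80.5 ± 0.793 CPM (SD, n = 2 libraries each). Its log2 fold change was 2.43 with an SE of 0.0745 (adjusted p = 1.08e-47), or 5.39-fold higher. Among the 6438 tested genes with a positive log2 fold change, DSP ranked 7 by p and 52 by fold change. DSP-AS1 overlaps DSP over 1777 bases on the other strand and was not analysed here.

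PPL and EVPL, whose products form a complex in stratified epithelia, were near the limit of detection. PPL had 2 and 0 counts in wildtype libraries and 0 and 6 in RUNX3 KO libraries. EVPL had 1 and 0 counts in wildtype libraries and 3 and 1 in RUNX3 KO libraries. The groups overlapped for both genes, and no fold change was derived. DSP was thus the single plakin of the 9 genes with counts well above the floor.

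To compare levels between genes, CPM was divided by length, as CPM per kilobase of the exons of the MANE Select transcript, and these values would shift if other transcripts were in use. In wildtype cells the order was DSG2 with 29.4 ± 0.254, PKP4 with 26.6 ± 0.656, DSC2 with 3.07 ± 0.0155, DSP with 1.54 ± 0.0375, PKP2 with 1.29 ± 0.297 and JUP with 0.109 ± 0.0513 CPM per kilobase (SD, n = 2). DSP and PKP2 differed by less than the SD of PKP2, and the other neighbours in this order by more than their SDs. In RUNX3 KO cells the order became PKP4 with 37.9 ± 0.480, DSG2 with 18.6 ± 0.982, DSP with 8.30 ± 0.0817, PKP2 with 1.96 ± 0.255, DSC2 with 1.35 ± 0.0595 and JUP with 0.574 ± 0.0941 CPM per kilobase (SD, n = 2). Here neighbours down to JUP were apart by more than either SD. DSP had moved from rank 4 to rank 3, and DSC2 from rank 3 to rank 5. DSC3, PPL and EVPL held the lowest ranks in both groups, with means under 0.1 CPM per kilobase.

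The makeup of the desmosome transcripts differed as well. Their summed level was 345 to 352 CPM in wildtype and 385 to 391 CPM in RUNX3 KO libraries. DSP made up 4.16% (95% exact Clopper-Pearson interval from 3.57% to 4.81%) and 4.40% (3.79% to 5.07%) of all counts on the 9 genes in wildtype libraries, and 20.4% (19.3% to 21.6%) and 21.1% (19.9% to 22.3%) in RUNX3 KO libraries. DSG2 went the other way, from 47.8% and 48.2% in wildtype libraries to 28.1% and 26.5% in RUNX3 KO libraries. PKP4 went from 35.4% and 34.9% to 45.0% and 44.9%, and DSC2 from 10.7% and 11.0% to 4.11% and 4.45%. Intervals cover counting error only. Each library held 0.0871 and 0.0912 DSP counts per DSG2 count in wildtype and 0.727 and 0.794 in RUNX3 KO cells, 8.53 times as many on average. For DSP per DSC2 count the values were 0.389 and 0.400 against 4.96 and 4.73, or 12.3 times as many. Both ratios were chosen after the values were seen and are a description, since no permutation test of 2 libraries against 2 can reach 0.05.

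The remaining desmosome genes were listed as DSC1, DSG1, DSG3, DSG4, PKP1, PKP3 and PERP. Of these 7, 2 were tested and both were lower in RUNX3 KO cells, and none was higher (all tested genes: 24.4% lower, 24.5% higher). DSC1, a desmocollin of the upper epidermis, had 345 and 302 counts in wildtype libraries and 170 and 163 in RUNX3 KO libraries (log2 fold change -0.97, SE 0.0992, adjusted p = 1.94e-14). Per length DSC1 lay above DSC2 in both groups, at 6.49 ± 0.608 CPM per kilobase in wildtype and 3.31 ± 0.141 in RUNX3 KO cells (SD, n = 2 libraries each). DSG1, DSG3 and PKP3 had 0 counts in every library, and DSG4 and PKP1 at most 3. The long noncoding gene DSCAS covers all of DSC1 on the other strand, so DSC1 counts carry the same strand limit as DSG2. DSCAS also overlaps DSC2 over 983 bases, with the same limit. PERP, a membrane protein of desmosomes that is also a p53 target, had 451 and 471 counts in wildtype libraries and 266 and 309 in RUNX3 KO libraries (log2 fold change -0.69, SE 0.0801, adjusted p = 2.82e-12).

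DSC3, DSC2, DSC1, DSG1, DSG4, DSG3 and DSG2 lie in a row within 560 kb of chromosome 18, so the tested desmosomal cadherins are neighbours. Over the 40 tested genes nearest to DSC2, 20 on each side, the median log2 fold change was 0.03, with 2 genes that went down as far as DSC2 or further. Around DSG2 the median was 0.01, and 5 of the 40 went down as far. Chromosome 18 as a whole had a median of 0.03 over 173 tested genes. Closer by, within 4 Mb of DSC2 on either side, a window set after the data were seen, 10 genes were tested, of which 7 were lower and 2 were higher. Over all tested genes 24.4% were lower and 24.5% higher. Without DSC2, DSC1 and DSG2 the window held 7 tested genes, 4 lower and 2 higher, with a median of -0.14. B4GALT6, the tested gene next to DSG2, was lower (log2 fold change -0.50, SE 0.134, adjusted p = 0.00116), and TRAPPC8 beyond it was higher (0.22, SE 0.0528, adjusted p = 0.000331). Further along, RNF125 was lower (-1.04, SE 0.159, adjusted p = 2.73e-08) and RNF138 higher (0.42, SE 0.0694, adjusted p = 1.81e-07). ASXL3 fell furthest in this window, from 47 and 49 counts to 2 and 2. It passed the filter on low counts through its wildtype libraries alone, so a difference was needed for it to be tested. Elsewhere, none of the 40 tested genes nearest to DSP rose as much as DSP, with a median log2 fold change of -0.04 among them, and none of those nearest to JUP rose as much as JUP (median 0.01). For PKP2 and for PKP4, 1 of the 40 did.

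**Figure D2:**
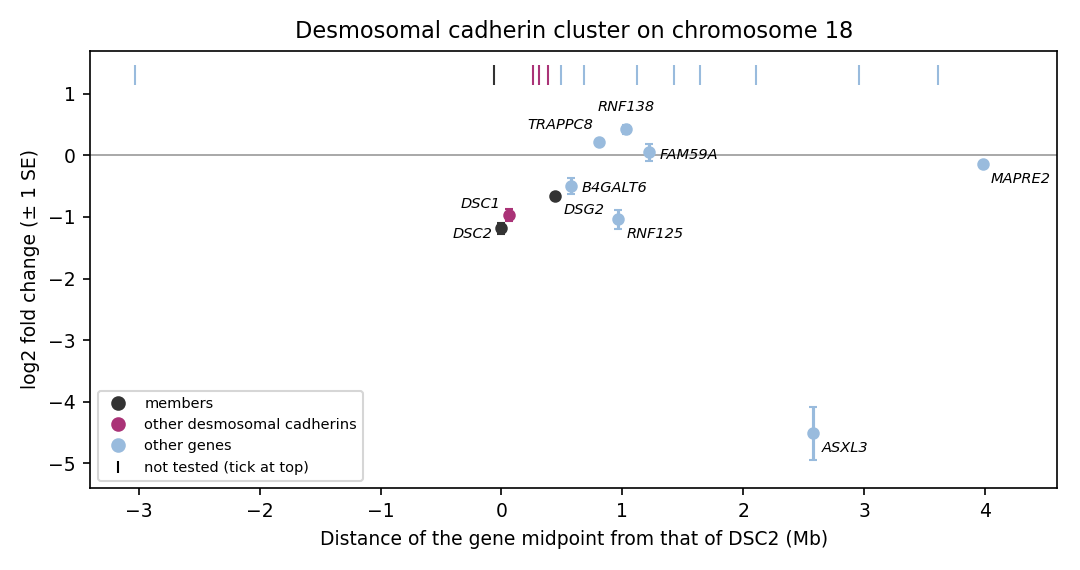
log2 fold change (± 1 SE) of tested genes on chromosome 18 against the distance of their midpoint from that of DSC2 in Mb, with ticks at the top for genes that were not tested. DSC2, DSC1 and DSG2 lie between -1.19 and -0.66, and of the other called genes within 1.1 Mb of DSC2, B4GALT6 at -0.50 and RNF125 at -1.04 lie under 0 while TRAPPC8 at 0.22 and RNF138 at 0.42 lie above it.

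Desmoplakin anchors intermediate filaments, and 9 genes for such filaments had been listed. Of these, 3 were tested, with KRT8 and KRT80 higher and VIM lower in RUNX3 KO cells (all tested genes: 24.5% higher, 24.4% lower). KRT8, the type II keratin of simple epithelia, had 19 and 11 counts in wildtype libraries and 72 and 81 in RUNX3 KO libraries (log2 fold change 2.33, SE 0.251, adjusted p = 1.90e-13). KRT18, its partner, had 0 counts in both wildtype libraries and 2 and 14 in RUNX3 KO libraries, too few for a test and mostly from RUNX3 KO replicate 2. Both keratins have many near-identical pseudogenes, and their counts are uncertain, since the tables hold reads with several alignments in a row apart from the genes. KRT80 rose by 1.19 on the log2 scale (SE 0.231, adjusted p = 7.94e-06). VIM, which encodes vimentin, fell by 0.75 on the log2 scale (SE 0.0194, adjusted p = 1.84e-53), with 4885 ± 19.4 CPM in wildtype and 2901 ± 50.01 CPM in RUNX3 KO cells (SD, n = 2 in each group). KRT7, KRT20 and KRT23 had at most 3 counts in any library and DES at most 6.

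Plakin and armadillo relatives had smaller log2 fold changes than DSP, and 48.9% of all tested genes were called in either direction. Of 5 plakin relatives, 3 were tested, and PLEC (plectin) and MACF1 fell by 0.27 each on the log2 scale (SE 0.0302 and 0.0311), with adjusted p-values of 1.04e-12 and 1.50e-12, while DST was at -0.04 (adjusted p = 0.478). The call for PLEC was lost when either RUNX3 KO replicate was left out, with adjusted p-values of 0.0647 and 0.0622. Of 7 armadillo relatives and catenins, 4 were tested. CTNNA1 (alpha-catenin) rose by 0.27 (SE 0.0284, adjusted p = 9.94e-14) and ARVCF fell by 0.64 (SE 0.123, adjusted p = 6.32e-06), while CTNNB1 and CTNND1 were at 0.007 (SE 0.0351) and 0.002 (SE 0.214), without a call and with a sign that other scalings turned. ARVCF lost its call without RUNX3 KO replicate 2 (adjusted p = 0.0548).

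Of 14 regulators, 10 were tested, with 3 higher, 1 lower and 6 without a call (all tested genes: 24.5% higher, 24.4% lower). The lower gene, TP63, passed the filter on low counts through its wildtype libraries alone, so a difference was needed for it to be tested. ADAM10, a protease that sheds cadherin ectodomains including that of desmoglein 2, rose by 0.32 on the log2 scale (SE 0.0485, adjusted p = 1.74e-08). PRKCA, the kinase that loosens desmosomal adhesion, rose by 0.32 (SE 0.0578, adjusted p = 1.98e-06), and PRMT1 by 0.14 (SE 0.0311, adjusted p = 9.55e-05). The call for PRMT1 was lost without RUNX3 KO replicate 2 (adjusted p = 0.0699). TP63, the regulator of stratified epithelia, had 16 and 14 counts in wildtype libraries and 3 and 4 in RUNX3 KO libraries (log2 fold change -2.07, SE 0.507, adjusted p = 0.000350), and this call was lost with DESeq2 (adjusted p = 0.0576) and without RUNX3 KO replicate 1 (adjusted p = 0.0552) or 2 (adjusted p = 0.0514). The 6 genes without a call were ADAM17 (log2 fold change -0.02), PRKCD (-0.09), SRC (-0.01), EGFR (0.08), GSK3B (-0.08) and GRHL1 (0.01). The grainyhead factor GRHL2 and the OVOL factors, which favour epithelial genes, were near absent, with 0 counts for GRHL2 and at most 2 for OVOL1 and OVOL2. Medians of the tested genes were 0.56 for the desmosome members, -0.83 for the other desmosome genes, -0.27 for plakin relatives, 0.005 for armadillo relatives, 1.19 for filament genes and -0.0008 for regulators, beside -0.002 for all tested genes.

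**Figure D3:**
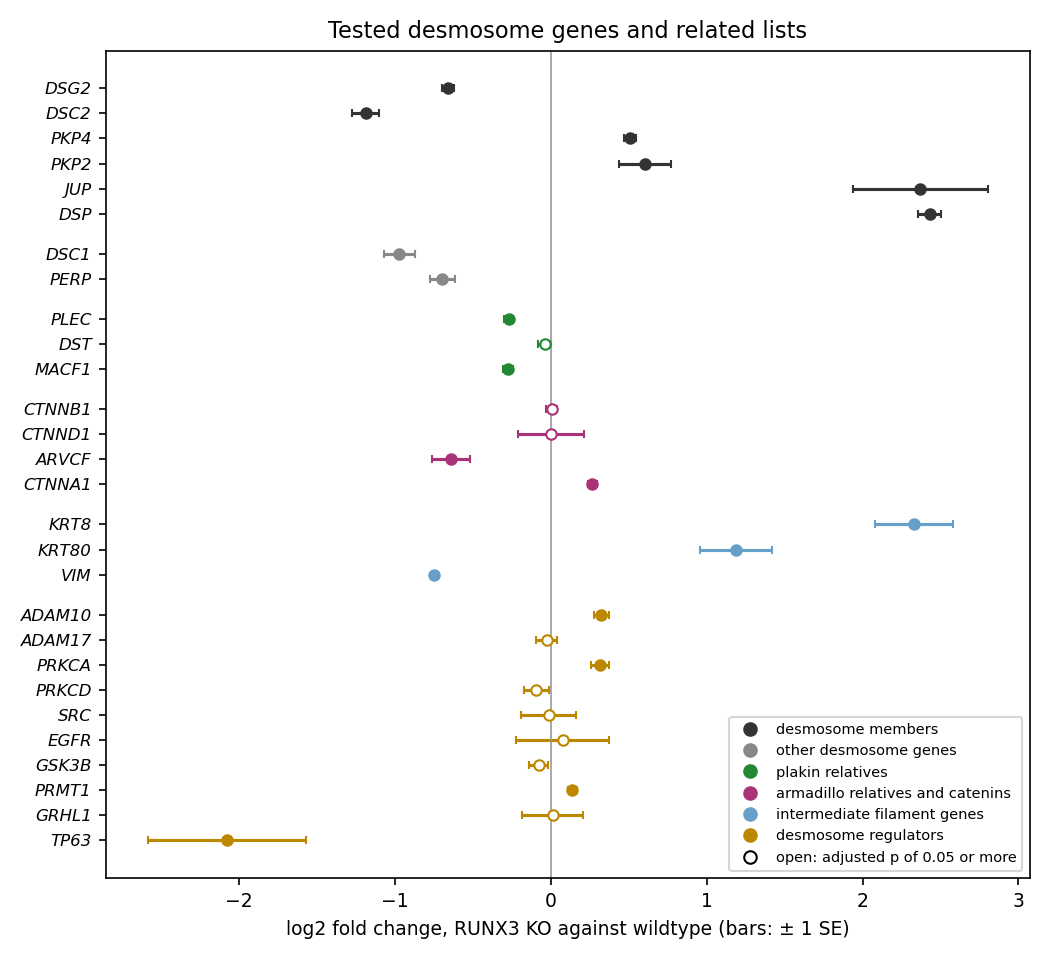
log2 fold change (RUNX3 KO against wildtype, ± 1 SE) of the 6 tested desmosome members and of the 22 tested genes in the related lists, with filled points for an adjusted p under 0.05. Of the members, DSP, JUP, PKP2 and PKP4 lie to the right of 0 and DSG2 and DSC2 to the left, and of the related genes the called genes DSC1, PERP, PLEC, MACF1, ARVCF, VIM and TP63 lie to the left and CTNNA1, KRT8, KRT80, ADAM10, PRKCA and PRMT1 to the right.

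The genes whose pattern was most like that of DSP over the 4 libraries, by the distance between centred log2 CPM among 10868 genes with a mean of at least 50 counts, were HSPB3, TNNC1 and RALGPS2. HSPB3 went from 21 and 19 counts in wildtype libraries to 125 and 139 in RUNX3 KO libraries, and TNNC1 from 74 and 69 to 375 and 360. For DSC2 the nearest were LIMCH1, OLIG2 and TRIB2, of which LIMCH1 had 280 and 294 counts in wildtype libraries and 124 and 134 in RUNX3 KO libraries. With 2 conditions, such likeness is a likeness in fold change and in the spread of replicates.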

How the data were processed

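Poly(A) RNA of 2 wildtype and 2 RUNX3 KO libraries was sequenced. The authors deposited raw read counts for each gene symbol, not normalized. The paper's methods name STAR, featureCounts, hg19 and GENCODE, whereas the submitters' processing notes name HISAT2 2.1.0, HTSeq and hg19, and the tables close with 5 rows named as by htseq-count for reads without a gene. These (25.9% to 28.1%) entered neither library sizes nor tests. The paper and the labels also name different media, extraction kits and library preparation.

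The test was run in edgeR 4.0.16 under R 4.3.3. Low genes were removed by filterByExpr (minimum count 10, minimum total 15), and the rest were scaled by TMM and tested with glmQLFit and glmQLFTest (prior count 0.125) over 12967 genes with Benjamini-Hochberg adjustment. The SE is the log2 fold change over the square root of F. CPM was computed per library from the TMM-scaled sizes of kept genes. Likeness used log2(CPM + 0.5). Genes with at most 3 counts in each library of a group were taken as at the floor. DESeq2 1.42.0 and limma 3.58.1 were alternatives. The fit was tested on simulated data. Positions and MANE Select exons came from GENCODE v44 lifted to GRCh37, the build called hg19, and 21717 of 25559 symbols matched, 2110 of them through a synonym. The members and lists were chosen with earlier results of these data known. Named were all 9 members, RUNX3, the tested genes of the lists and, for the members with the largest rise and fall, the 3 genes most like them. Neighbouring genes, listed genes that were not tested and ratios other than DSC3 to DSC2, PKP4 to PKP2 and EVPL to PPL were chosen after their values were seen. The DSC3 to DSC2 and EVPL to PPL ratios are not given, since counts were at 0 in some libraries.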

Additional observations from a re-analysis of the deposited data

How the results depend on the processing

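Over 14 alternatives (scaling, filter, test, replicate block, prior count and each library left out), the 6 tested members gave 83 values, all in the direction reported, and 77 kept their call. DSP, DSC2, DSG2 and PKP4 kept it throughout, with log2 fold changes from 2.41 to 2.45, -1.23 to -1.14, -0.71 to -0.61 and 0.48 to 0.54. Their adjusted p-values were far less stable, at 1.08e-47 for DSP to 9.03e-21 for PKP4 in the analysis reported. In the edgeR fit without a filter they were 5.07e-05 for DSP, 0.000355 for DSC2, 0.000544 for DSG2 and 0.000507 for PKP4. They were larger still when a RUNX3 KO library was left out. With each library left out, PKP2 ranged from 0.38 to 0.86 and JUP from 1.97 to 2.93, and PKP2 lost its call without a filter (0.61, adjusted p = 0.0698) and with DESeq2 (0.60). JUP was not tested when 10 counts were required in every library.

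Members called higher ranged from 2 to 4 with a library left out, plakin relatives called lower from 1 to 2, and armadillo relatives and regulators called lower from 0 to 1. Regulators called lower were also 0 with DESeq2 and with 10 counts in every library. By the fold change of at least 2, counts were 2 higher and 1 lower for members, and 0 for other desmosome genes, plakin relatives, armadillo relatives and filament genes called lower and for armadillo relatives and regulators called higher.

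Among genes without a call, some changed sign. Upper-quartile scaling gave log2 fold changes of -0.0135 for CTNNB1, -0.0182 for CTNND1 and -0.0091 for GRHL1, library size alone gave -0.0128, -0.0174 and -0.0084, and 10 counts in every library gave -0.0040 for CTNND1. With a library left out, DST ranged from -0.157 to 0.0735, CTNNB1 from -0.0176 to 0.0306, CTNND1 from -0.0482 to 0.0530, ADAM17 from -0.0533 to 0.0054, SRC from -0.0562 to 0.0292, EGFR from -0.306 to 0.598 and GRHL1 from -0.165 to 0.211. The cause of these differences was not tested.

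Over all genes, DESeq2 called 1829 higher and 1863 lower, and edgeR called 1483 and 1531 without RUNX3 KO replicate 1 and 1285 and 1378 without replicate 2, against 3183 and 3158 in the analysis reported.

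Same-numbered libraries had a correlation of 0.02 between their deviations. These deviations are close to counting noise, so the value cannot tell whether same-numbered libraries shared a culture or a batch. A replicate block called 3143 genes higher and 3143 lower, against 3183 and 3158 without it, with log2 fold changes of 0.60 for PKP2 and 2.37 for JUP, and changed no call among the members. The 2 libraries per group and the low counts of PKP2, JUP and KRT8 limit the precision, and levels of DSC3, PPL and EVPL could not be resolved at this depth.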
